A study of Danio rerio with 14 samples.

Results

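The regions described here are ATAC-seq peaks of zebrafish heart muscle cells that the authors assigned to genes of 2 KEGG pathways, Cell cycle and DNA replication. They were chosen by pathway terms and gene names. A peak was kept when its terms included either pathway and none of 5 others (MAPK signaling, focal adhesion, adrenergic signaling in cardiomyocytes, Wnt signaling and mTOR signaling). Peaks of 5 named genes (ccnb1, ccnd1, cdkn1a, pcna and gadd45ba) were left out. In the table that holds 4 groups of libraries, 71 of 16610 peaks met this rule, at 62 genes. In the separate table of the A-Fos experiment, 42 of 6339 peaks met it, at 41 genes. All 41 of those genes also had a member peak in the larger table, and each of the 42 peaks overlapped one there.

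ATAC-seq uses a transposase to cut accessible DNA, so the number of reads in a peak measures how open that stretch of chromatin is. The study asked how AP-1 transcription factors, of which junba and junbb encode JunB subunits, act on chromatin in cardiomyocytes of the regenerating adult heart. The gata4:EGFP+ libraries (n = 2) came from cardiomyocytes sorted by flow cytometry for a gata4 reporter 4 days after a freezing injury of the ventricle, with 5000 cells per reaction. The junba OE and junbb OE libraries (n = 2 each) came from uninjured hearts 7 days after overexpression was induced in cardiomyocytes. Those cells were isolated by density gradient, with 50000 cells per reaction. The myl7:nucDsRed+ libraries (n = 2) came from uninjured hearts, sorted for a nuclear reporter driven by the myl7 promoter, with 5000 cells per reaction. The A-Fos (+) libraries (n = 3) came from wound border cardiomyocytes 4 days after injury in fish given 4-hydroxytamoxifen at 0.5 mg/mL, which induced A-Fos, a dominant-negative inhibitor of AP-1, in cardiomyocytes. The A-Fos (-) libraries (n = 3) came from injured fish given ethanol vehicle, and both A-Fos groups were isolated by density gradient with 5000 cells per reaction. Ventricles of 6 adult hearts were pooled for a preparation, and injured fish were males and females of 4 to 12 months. The labels do not say whether libraries of a group came from separate pools, so p-values measure the spread between these libraries.

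The cell cycle is driven by cyclin-dependent kinases, which are switched on by cyclins and restrained by inhibitors, and which release E2F transcription factors from the pocket proteins to start DNA synthesis. Licensed origins then fire and replication forks copy the genome. Cohesin holds sister chromatids together, checkpoints can delay their separation, and the anaphase-promoting complex triggers it. Adult zebrafish cardiomyocytes are mostly quiescent and re-enter the cycle near a wound, where they supply the new muscle.

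The values are the authors' background-corrected and size-factor normalized reads per peak, rounded to whole numbers. From the spacing of the whole numbers, 1 read was worth an estimated 0.531 to 2.034 units in the table of 4 groups and 0.427 to 2.885 units in the A-Fos table, and the estimated nuclear reads in peaks ranged over 468577 to 1451740 and 129391 to 811239 per library. The estimate explained a share of only 0.366 of the spacing in gata4:EGFP+ replicate 1 and 0.175 in A-Fos (-) replicate 1. Those libraries gave the smallest units and the highest read estimates, so these ends of the ranges are uncertain. Depth differed between groups: junba OE had the lowest estimates of the 4 groups (613077 and 468577). The mitochondrial share of the summed values was 72.0% and 73.4% in gata4:EGFP+, and 82.8% to 87.9% in the other libraries of that table. In replicate order it was 85.2%, 92.0% and 94.2% in A-Fos (+), against 79.9%, 88.0% and 87.1% in A-Fos (-). The estimated nuclear reads were 567772, 307196 and 129391 in A-Fos (+), against 811239, 521841 and 233566 in A-Fos (-). The part of depth and mitochondrial share in the results was not tested. A peak was tested when its mean over the libraries of its table was at least 10, a filter that all 71 and all 42 members passed. All log2 changes are on the scale of log2(value + 5), which understates the change of low peaks, and calls are limma tests at a Benjamini-Hochberg adjusted p under 0.05 over all tested peaks of the table.

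Most member peaks lay at promoters. The centre of 56 of the 71 (78.9%) was within 500 bp of the start site of the assigned gene, compared with 38.3% of the 14776 tested peaks and 71.8% of the tested peaks that had a gene. Of the 71, 20 lay wholly inside the gene body and 12 did not touch it. A single member peak was found at 55 genes, 2 at 5 genes and 3 at 2 genes, cdkn1ba and stag2b, so peaks of these genes share a target. The median member was 297 bp wide and had a mean value of 35.5 (range 11.4 to 274). Per 100 bp, the median value was 13.3 for the members, 11.8 for all tested start-site peaks and 9.77 for all tested peaks.

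The peak with the highest mean value of each role group is named next, with that mean per 100 bp over the 8 libraries. These were hdac1 (22.9), a histone deacetylase recruited by pocket proteins, cdkn1bb (29.1), a p27-type inhibitor of cyclin-dependent kinases, and cdk1 (16.9), the mitotic kinase. They also included cdc45 (13.7), part of the replicative helicase, fen1 (16.2), the nuclease that trims Okazaki fragments, and anapc5 (13.4), a subunit of the anaphase-promoting complex. The remaining leaders were the start-site peak of ywhaqa (20.8), a 14-3-3 protein, and cdc14b (22.2), a phosphatase. Per 100 bp, other members stood higher in 5 of these groups: tfdp1a (47.0) above hdac1, cdk2 (23.9) above cdk1, mcm4 (23.1) above cdc45, rfc5 (17.5) above fen1 and the stag2b peak at 2224 bp (27.0) above cdc14b. None of the 8 peaks of highest mean was called between gata4:EGFP+ and myl7:nucDsRed+, and their log2 changes there ran from -0.53 at cdk1 to 0.30 at hdac1. The summed value of the members, per 1000 units summed over all start-site peaks, was 11.3 and 11.3 in gata4:EGFP+, 11.2 and 12.5 in junba OE, 11.6 and 11.6 in junbb OE, and 10.8 and 11.7 in myl7:nucDsRed+. These ranges overlapped in all groups but one pair: both junbb OE values stood above both gata4:EGFP+ values.

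**Figure D1:**
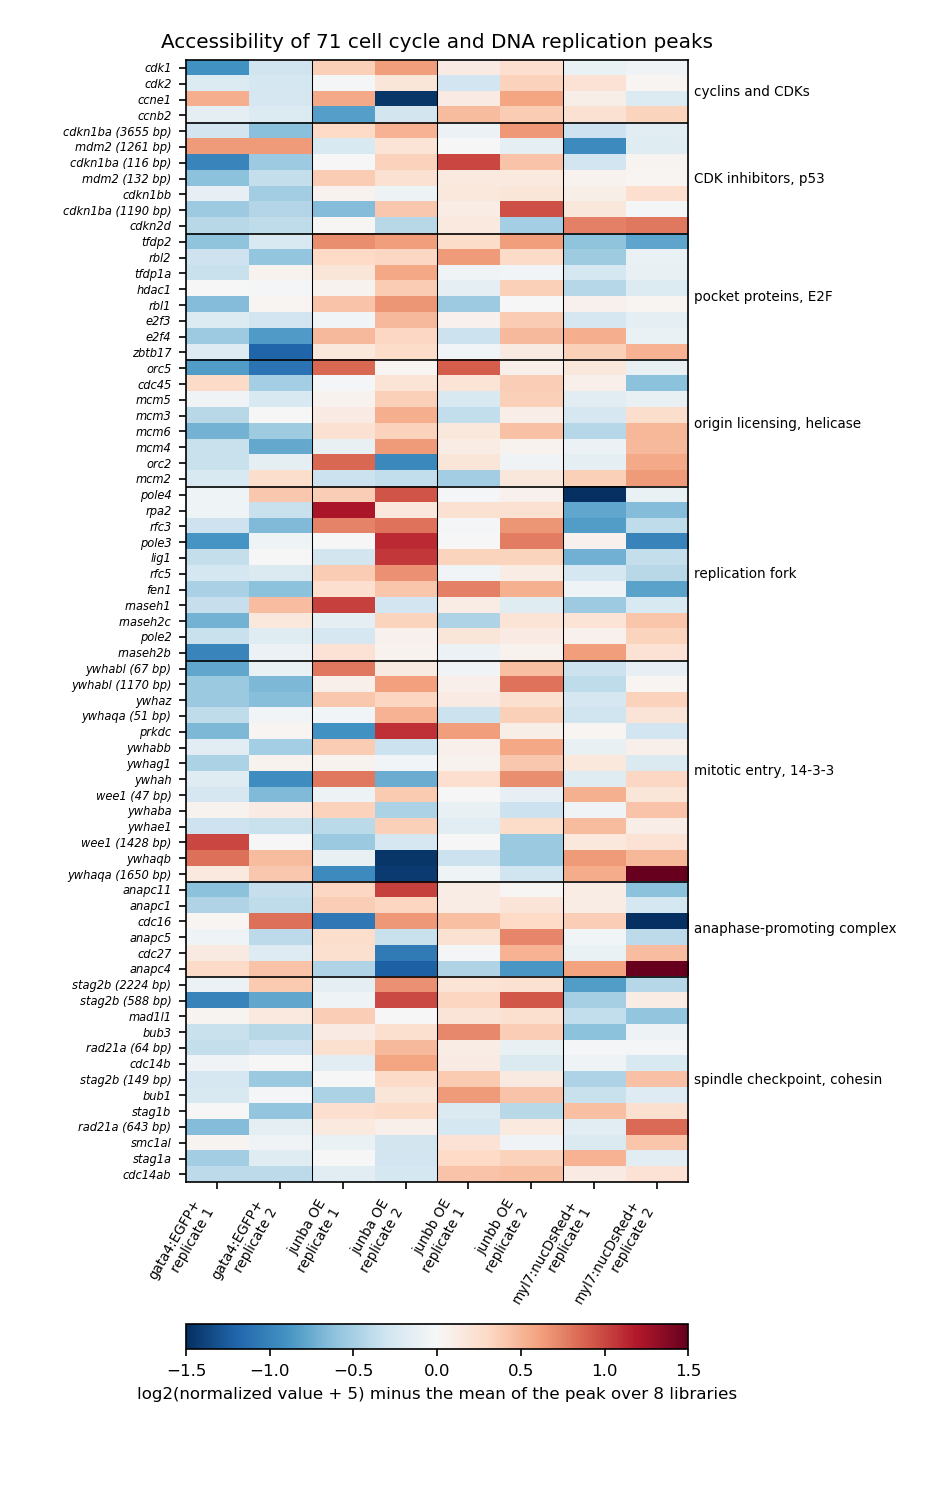
Accessibility of the 71 member peaks (rows, grouped by role, with the distance to the start site where a gene has several) in the 8 libraries of 4 groups (columns). Colour shows log2(value + 5) minus the mean of that peak over the libraries. Most peaks stay close to their mean, and the strongest contrasts sit at single peaks such as those of anapc4 and ywhaqa at 1442 and 1650 bp. Both of these have low values and passed the filter only through myl7:nucDsRed+, where they are high, so their contrasts were favoured by the filter.

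Few of these peaks passed the test in regenerating cells. Against myl7:nucDsRed+, 1 member was more accessible in gata4:EGFP+ (an intragenic peak of mdm2) and 2 were less accessible (the promoter of cdkn2d and a peak upstream of zbtb17), out of 71. Of all tested peaks 12.3% were higher and 6.61% lower (18.9% called), and of tested start-site peaks 2.57% were higher and 7.78% lower (10.3% called). The median log2 change was -0.23 over the members, -0.21 over tested start-site peaks and -0.06 over all tested peaks. All libraries of gata4:EGFP+ stood above all of myl7:nucDsRed+ at 7 members and below them at 30; among all tested peaks these shares were 29.0% and 32.2%. Among the 68 members not called was every peak of the cyclin and kinase, origin and replication fork groups. So was every peak of the mitotic entry checkpoint, anaphase-promoting complex, and spindle and cohesin groups. The cyclin and kinase group held only 4 peaks (ccnb2, ccne1, cdk1 and cdk2), with ccnb1 and ccnd1 left out by name. Only 26 of the 71 members had a 95% interval that lay wholly within 1 log2 unit of 0, so 2-fold changes were not excluded at most of them.

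The peak of mdm2 (ENSDARG00000033443), which encodes the ubiquitin ligase that degrades p53, lay at chromosome 4, 23126838 to 23127061, inside the gene body and 1261 bp downstream of the start site. Its value was 46 and 46 in gata4:EGFP+, 23 and 33 in junba OE, 28 and 25 in junbb OE, and 12 and 24 in myl7:nucDsRed+. The gata4:EGFP+ libraries were the highest of the 8, and the log2 change against myl7:nucDsRed+ was 1.20 ± 0.37 (SE; limma adjusted p = 0.026). The second mdm2 peak, at the start site, went the other way without being called (25 and 31 in gata4:EGFP+, against 43 and 42 in myl7:nucDsRed+; log2 change -0.53 ± 0.31, adjusted p = 0.25). The call at 1261 bp ended without either gata4:EGFP+ library, although the log2 change stayed at 1.2. It also ended without myl7:nucDsRed+ replicate 1, where the change was 0.81.

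The promoter of cdkn2d (ENSDARG00000094176), an INK4-type inhibitor of the kinases that act with D-type cyclins, lay at chromosome 6, 119971 to 120333, centred 29 bp from the start site. Its value was 39 and 40 in gata4:EGFP+, 54 and 39 in junba OE, 60 and 36 in junbb OE, and 94 and 96 in myl7:nucDsRed+. Both myl7:nucDsRed+ libraries stood above all 6 others, and the peak fell in each of the 3 comparisons. The log2 change was -1.17 ± 0.31 in gata4:EGFP+ (limma adjusted p = 0.0113), -0.97 ± 0.31 in junba OE (adjusted p = 0.023) and -0.95 ± 0.31 in junbb OE (adjusted p = 0.0227). These 3 values share the same myl7:nucDsRed+ libraries and are not independent. The call in gata4:EGFP+ ended without any 1 of its own libraries or of the myl7:nucDsRed+ libraries, although the log2 change stayed between -1.15 and -1.18. It also ended with equal totals (-0.93, limma adjusted p = 0.0644). The call in junba OE ended without junba OE replicate 2 (log2 change -0.76) or myl7:nucDsRed+ replicate 1 (-0.99) or 2 (-0.96). It also ended with equal totals (limma adjusted p = 0.0778) and with library weights (0.0527). That in junbb OE ended without junbb OE replicate 2 (log2 change -0.62) or myl7:nucDsRed+ replicate 1 (-0.97) or 2 (-0.94). It also ended with equal totals (-0.67, limma adjusted p = 0.143).

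The zbtb17 peak lay at chromosome 23, 24255190 to 24255697, 2244 bp upstream of the start site of zbtb17 (ENSDARG00000074548), which encodes Miz-1, a zinc-finger partner of Myc. Its value was 85 and 40 in gata4:EGFP+, 110 and 120 in junba OE, 95 and 108 in junbb OE, and 127 and 143 in myl7:nucDsRed+. The gata4:EGFP+ libraries were the lowest of the 8 although they differed from each other, and the log2 change against myl7:nucDsRed+ was -1.14 ± 0.28 (limma adjusted p = 0.00682). The call ended without gata4:EGFP+ replicate 2, where the log2 change shrank to -0.64, or myl7:nucDsRed+ replicate 2, where it was -1.05. The number of members called in this comparison fell to 1 without gata4:EGFP+ replicate 1, to 0 without gata4:EGFP+ replicate 2 and to 1 without myl7:nucDsRed+ replicate 1, and was 9 without either junba OE library, whose spread enters the common error. The 1 higher and 2 lower calls became 2 higher and 1 lower with equal totals, and 3 higher and 2 lower when libraries were centred on start-site peaks. Calls over all tested peaks went from 1818 higher and 977 lower to 2163 and 300 with equal totals, and to 2322 and 436 when centred. The number called over all tested peaks also fell without either gata4:EGFP+ library or myl7:nucDsRed+ replicate 1, and rose without either junba OE library.

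The reporters differ between gata4:EGFP+ and myl7:nucDsRed+, so injury and the sorted population cannot be told apart, nor can an opening in fewer cells and a smaller opening in every cell. Markers of other cells moved in the same comparison: 3 of 13 tested peaks of endothelial and endocardial markers and 3 of 5 of epicardial and fibroblast markers were more accessible in gata4:EGFP+, and 9 of 23 cardiomyocyte marker peaks were less accessible. The summed value over the cardiomyocyte marker peaks was 1090 and 1091 in gata4:EGFP+, against 1955 and 2315 in myl7:nucDsRed+, and that over the 7 epicardial and fibroblast peaks was 221 and 216, against 62 and 76. No cardiomyocyte, endothelial or epicardial marker peak was at 0 in these 4 libraries. The 4 leukocyte marker peaks summed to 81 and 74 in gata4:EGFP+, against 32 and 20 in myl7:nucDsRed+, and the 3 erythroid and thrombocyte peaks to 81 and 88, against 149 and 160. The part of other cells in the results was not tested.

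**Figure D2:**
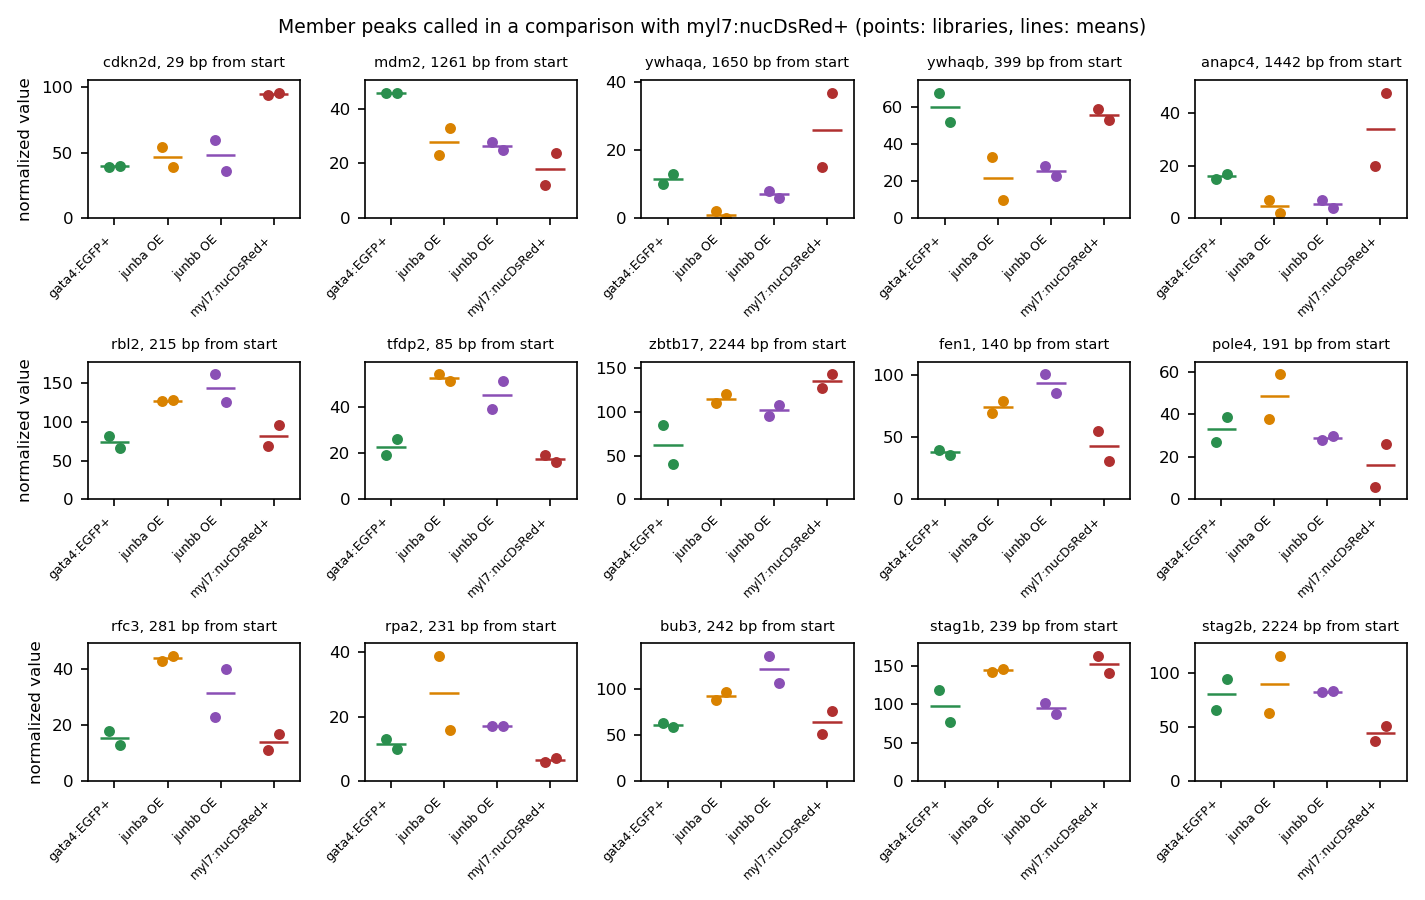
Normalized values of the 15 member peaks called in any comparison with myl7:nucDsRed+, in the 4 groups; points are the 2 libraries of a group and lines their mean. At cdkn2d both myl7:nucDsRed+ libraries (94 and 96) lie above the other 6, and at tfdp2 all 4 junba OE and junbb OE libraries (39 to 54) lie above the other 4 (16 to 26).

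With junba overexpressed, start-site peaks of the replication fork genes pole4, rpa2 and rfc3 and of the E2F partner tfdp2 were more accessible, as was a peak within stag2b. Peaks at ywhaqa, anapc4, ywhaqb and cdkn2d were less accessible. Of these, the ywhaqa and anapc4 peaks passed the filter only through myl7:nucDsRed+, where they are high, so their falls were favoured by the filter. Of the 71 members, 5 were thus higher and 4 lower in junba OE than in myl7:nucDsRed+, while 10.3% of all tested peaks were higher and 15.9% lower (26.1% called). Of tested start-site peaks 11.9% were higher and 5.52% lower (17.4% called). The median log2 change was 0.26 over the members, 0.16 over tested start-site peaks and -0.07 over all tested peaks. All junba OE libraries stood above all myl7:nucDsRed+ libraries at 24 members and below them at 10, compared with 26.0% and 32.4% of all tested peaks.

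The tfdp2 promoter (ENSDARG00000042835; chromosome 15, 4528354 to 4528589, 85 bp from the start site) serves the gene of a DP protein, the obligate partner of E2F factors. Its value was 54 and 51 in junba OE and 39 and 51 in junbb OE, against 19 and 16 in myl7:nucDsRed+ and 19 and 26 in gata4:EGFP+. The libraries of either overexpression stood above the other 4 without overlap. The log2 change against myl7:nucDsRed+ was 1.36 ± 0.34 in junba OE (limma adjusted p = 0.00622) and 1.14 ± 0.34 in junbb OE (adjusted p = 0.0149). The junba OE call held in all 18 alternative fits. The junbb OE call ended without myl7:nucDsRed+ replicate 2 (log2 change 1.05) or junbb OE replicate 2 (0.97). The promoters of tfdp1a, another DP protein gene, and of e2f3 were not called: tfdp1a had 143 and 191 in junba OE, against 104 and 116 in myl7:nucDsRed+ (log2 change 0.57, adjusted p = 0.073), and e2f3 had a log2 change of 0.42 in each overexpression (adjusted p = 0.215 in junba OE and 0.213 in junbb OE).

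At the replication fork, pole4 (ENSDARG00000013016; chromosome 11, 6206268 to 6206599), a histone-fold subunit of DNA polymerase epsilon, had 38 and 59 in junba OE, against 6 and 26 in myl7:nucDsRed+ (log2 change 1.51 ± 0.42, limma adjusted p = 0.0116). The peak of rpa2 (ENSDARG00000037188; chromosome 16, 4769873 to 4770131), a subunit of the protein that coats single-stranded DNA, had 39 and 16 in junba OE, against 6 and 7 in myl7:nucDsRed+ (1.40 ± 0.43, adjusted p = 0.019). The peak of rfc3 (ENSDARG00000055969; chromosome 10, 34033264 to 34033533), a subunit of the clamp loader, had 43 and 45 in junba OE, against 11 and 17 in myl7:nucDsRed+ (1.38 ± 0.38, adjusted p = 0.0104). In none of the 3 did the libraries of these groups overlap. The pole4 call ended without junba OE replicate 2 (log2 change 1.22) or myl7:nucDsRed+ replicate 1, where the change shrank to 0.76. The rpa2 call ended without junba OE replicate 1 (0.87) or myl7:nucDsRed+ replicate 1 (1.34) or 2 (1.47). It also ended in a fit of only the 2 groups (limma adjusted p = 0.0545). The rfc3 call ended without myl7:nucDsRed+ replicate 1 (log2 change 1.15).

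Over all 11 replication fork peaks the median log2 change against myl7:nucDsRed+ was 0.88 in junba OE (3 higher and none lower), 0.86 in junbb OE (1 higher and none lower) and 0.10 in gata4:EGFP+ (none called). The median over all tested start-site peaks was 0.16 in junba OE, 0.17 in junbb OE and -0.21 in gata4:EGFP+, and 11.9% of them were called higher in each overexpression. In junba OE, 8 of the 11 fork peaks were above 0 and 3 below. The exceptions were the peak 2585 bp upstream of pole2, a second polymerase epsilon subunit, and the start-site peaks of rnaseh2b and rnaseh2c, subunits of the RNase H2 that removes ribonucleotides from DNA. Start-site peaks at 3 more fork genes did not pass the test in either overexpression: the log2 change was 1.03 in junba OE and 0.86 in junbb OE at pole3, a histone-fold partner of pole4, and 0.93 and 0.87 at lig1, the ligase that seals Okazaki fragments, and 0.88 and 0.38 at rfc5, of the clamp loader. The 8 peaks of origin licensing and helicase genes had medians of 0.29 in junba OE, 0.05 in junbb OE and -0.46 in gata4:EGFP+, with none called. The mcm2 peak, of a helicase subunit, was the lowest of these 8 in either overexpression (log2 change -0.84 in junba OE and -0.68 in junbb OE, adjusted p = 0.0851 and 0.163). The fork median was the highest of the role groups in both overexpressions. Next came pocket protein and E2F genes in junba OE (median 0.52, 7 of 8 peaks above 0). In junbb OE it was the inhibitor and p53 group (0.47, 6 of 7 peaks above 0, counting cdkn1bb at 0.0). Those 7 peaks belong to only 4 genes, cdkn1ba, cdkn1bb, cdkn2d and mdm2. Of the 5653 tested start-site peaks, 3390 were above 0 in junba OE and 3525 in junbb OE.

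**Figure D3:**
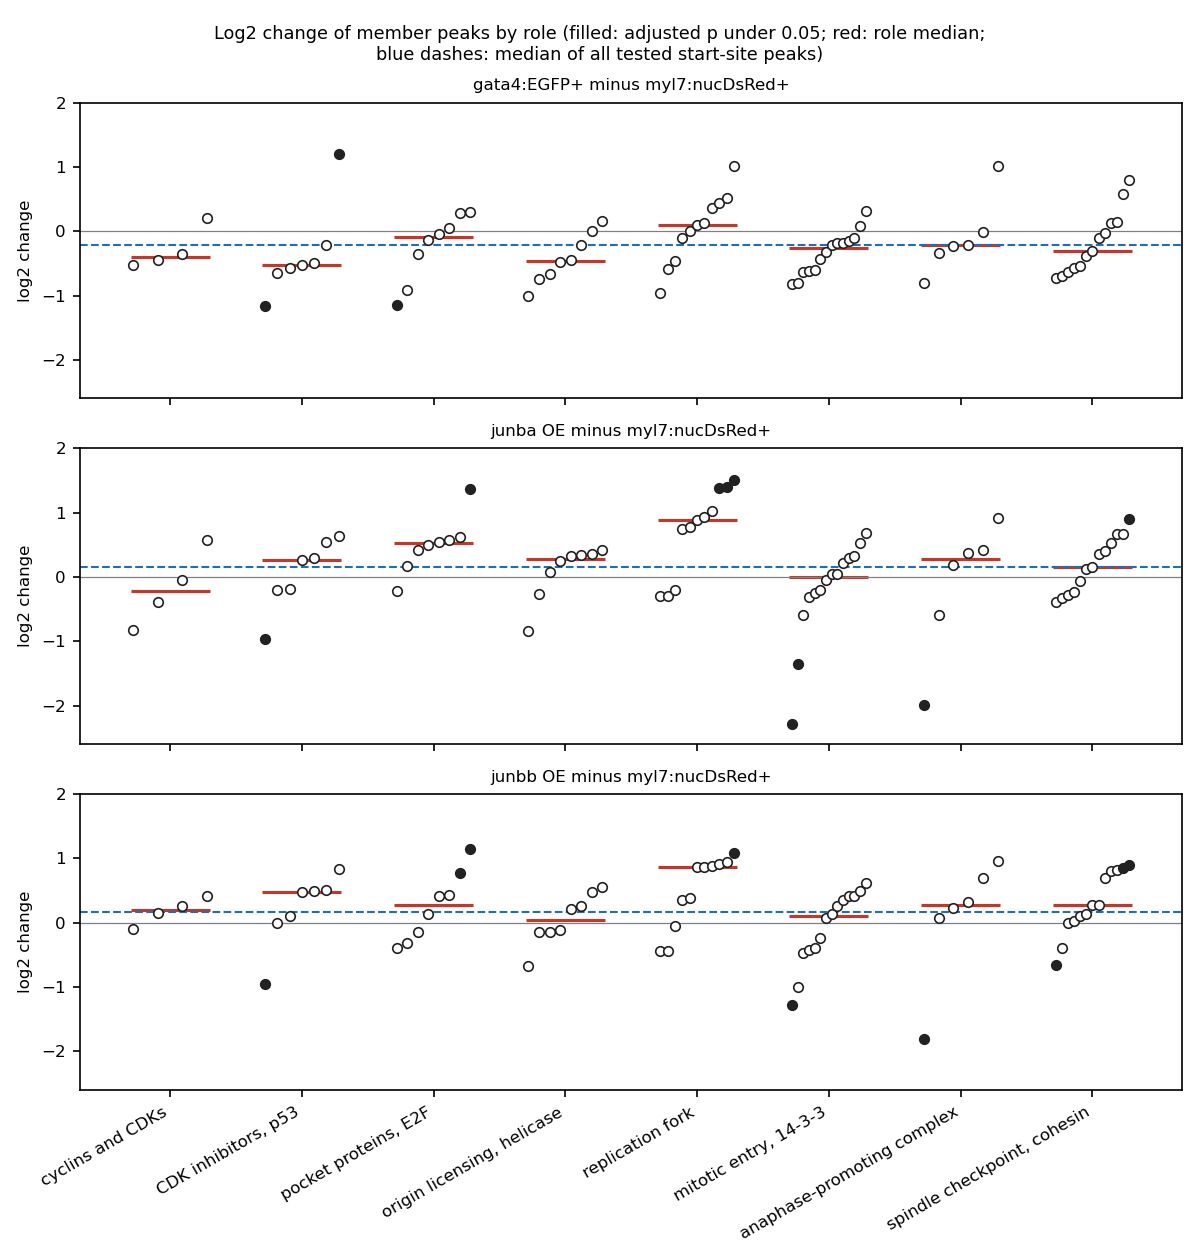
Log2 change against myl7:nucDsRed+ of the 71 member peaks by role, in gata4:EGFP+ (top), junba OE (middle) and junbb OE (bottom); filled points passed the test, red bars are role medians and blue dashes the median of all tested start-site peaks. The replication fork median is 0.88 in junba OE and 0.86 in junbb OE, where the dashes stand at 0.16 and 0.17, and 0.10 in gata4:EGFP+.

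Of the 4 less accessible peaks in junba OE, those of ywhaqa, anapc4 and ywhaqb lay upstream of the gene. The ywhaqa peak (ENSDARG00000042539; chromosome 20, 29564168 to 29564343), 1650 bp upstream of this 14-3-3 gene, had 2 and 0 in junba OE, 8 and 6 in junbb OE and 10 and 13 in gata4:EGFP+, against 15 and 37 in myl7:nucDsRed+. It had the largest fall among the members, -2.29 ± 0.46 in junba OE (limma adjusted p = 0.00127), a size that depends on the added 5 at values this low; it was -1.28 ± 0.46 in junbb OE (adjusted p = 0.0393). The peak passed the filter only through myl7:nucDsRed+, where it is high: its mean was 11.4 over the 8 libraries and 6.5 over the 6 others. Without myl7:nucDsRed+ replicate 2 it was not tested, so the fall was not checked without that library. The junbb OE call ended without either junbb OE library (log2 change -1.4 and -1.16) or either gata4:EGFP+ library, where the change stayed at -1.28. It also ended with an added 1 in place of 5 (limma adjusted p = 0.154), with equal totals (0.0812) and with quantile normalization (0.059). The start-site peak of the same gene was not called, with 85 and 128 in junba OE, against 70 and 101 in myl7:nucDsRed+.

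The anapc4 peak (ENSDARG00000032237; chromosome 20, 23496068 to 23496239), 1442 bp upstream of a scaffold subunit gene of the anaphase-promoting complex, had 7 and 2 in junba OE and 7 and 4 in junbb OE, against 20 and 48 in myl7:nucDsRed+. The log2 change was -1.99 ± 0.46 in junba OE (limma adjusted p = 0.00331) and -1.81 ± 0.46 in junbb OE (adjusted p = 0.00485). This peak, too, passed the filter only through myl7:nucDsRed+, with a mean of 15 over the 8 libraries and 8.67 over the 6 others. Without myl7:nucDsRed+ replicate 2 the calls ended (log2 change -1.45 in junba OE and -1.27 in junbb OE), and without junbb OE replicate 2 the junbb OE call ended (-1.6). The other 5 peaks of the anaphase-promoting complex and SCF ligase group were not called in any comparison with myl7:nucDsRed+.

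The ywhaqb peak (ENSDARG00000023323; chromosome 17, 32374326 to 32374627), 399 bp upstream of a second 14-3-3 gene, had 33 and 10 in junba OE and 28 and 23 in junbb OE, against 59 and 53 in myl7:nucDsRed+ and 68 and 52 in gata4:EGFP+. All overexpression libraries were below the other 4. The log2 change was -1.35 ± 0.38 in junba OE (limma adjusted p = 0.0126) and -1.0 ± 0.38 in junbb OE (adjusted p = 0.0529), where it missed the threshold. The junba OE call ended without junba OE replicate 2, where the log2 change shrank to -0.68, or myl7:nucDsRed+ replicate 1 (-1.28) or 2 (-1.42).

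The stag2b peak (ENSDARG00000053668; chromosome 14, 28488300 to 28488574), inside the gene body 2224 bp from the start site of a cohesin subunit gene, had 63 and 116 in junba OE and 82 and 83 in junbb OE, against 37 and 51 in myl7:nucDsRed+. It rose by 0.90 ± 0.30 on the log2 scale in junba OE (limma adjusted p = 0.03) and by 0.85 ± 0.30 in junbb OE (adjusted p = 0.0368). The gata4:EGFP+ libraries had 66 and 94, a log2 change of 0.79 that was not called (adjusted p = 0.0693). The junba OE call ended without junba OE replicate 2 (log2 change 0.49) or either myl7:nucDsRed+ library (0.70 and 1.11). It also ended when centred on start-site peaks (limma adjusted p = 0.063), with library weights (0.0573) or in a fit of 2 groups (0.0735). The junbb OE call ended without either of its own libraries (log2 change 0.86 and 0.84) or either myl7:nucDsRed+ library (0.64 and 1.06). It also ended without gata4:EGFP+ replicate 2 (0.85) and when centred (limma adjusted p = 0.0851). The other stag2b peaks, 149 and 588 bp from the start site, were not called in either comparison.

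The count of 9 members called in junba OE was 4 without myl7:nucDsRed+ replicate 1, 3 without myl7:nucDsRed+ replicate 2 and 19 without junba OE replicate 1. The split of 5 higher and 4 lower became 4 higher and 5 lower when libraries were centred on start-site peaks. Calls over all tested peaks then went from 1515 higher and 2342 lower to 1129 and 2863. The number called over all tested peaks also fell without either myl7:nucDsRed+ library and rose without junba OE replicate 1.

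With junbb overexpressed, the start-site peaks of fen1, bub3, rbl2 and tfdp2 and the stag2b peak were more accessible, and the peaks of anapc4, ywhaqa, cdkn2d and stag1b less. The anapc4 and ywhaqa peaks passed the filter only through myl7:nucDsRed+, where they are high, so their falls were favoured by the filter. Of the 71 members, 5 were higher and 4 lower in junbb OE than in myl7:nucDsRed+; of all tested peaks 12.6% were higher and 16.3% lower (28.8% called), and of tested start-site peaks 11.9% were higher and 5.52% lower (17.4% called). The median log2 change was 0.26 over the members, 0.17 over tested start-site peaks and -0.02 over all tested peaks. All junbb OE libraries stood above all myl7:nucDsRed+ libraries at 30 members and below them at 12, compared with 30.4% and 33.1% of all tested peaks.

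The fen1 promoter (ENSDARG00000011404; chromosome 24, 11908148 to 11908532) had 101 and 86 in junbb OE and 70 and 79 in junba OE, against 55 and 31 in myl7:nucDsRed+, with 40 and 36 in gata4:EGFP+. The overexpression libraries stood above the other 4. The log2 change against myl7:nucDsRed+ was 1.08 ± 0.30 in junbb OE (limma adjusted p = 0.00963) and 0.77 ± 0.30 in junba OE (adjusted p = 0.0615), which missed the threshold. The junbb OE call ended without junbb OE replicate 1 (log2 change 0.97) or myl7:nucDsRed+ replicate 2 (0.71).

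The peak of bub3 (ENSDARG00000075883; chromosome 12, 49150823 to 49151344), a spindle checkpoint protein, had 136 and 106 in junbb OE, against 51 and 76 in myl7:nucDsRed+ (log2 change 0.89 ± 0.26, limma adjusted p = 0.0137). The promoter of rbl2 (ENSDARG00000045636; chromosome 25, 36044495 to 36045100), the p130 pocket protein of quiescent cells, had 161 and 125 in junbb OE, against 69 and 95 in myl7:nucDsRed+ (0.77 ± 0.25, adjusted p = 0.0214). In junba OE these 2 peaks were not called (log2 change 0.53 with adjusted p = 0.147 for bub3, and 0.62 with adjusted p = 0.0671 for rbl2). The bub3 call ended without junbb OE replicate 1 (log2 change 0.72) or myl7:nucDsRed+ replicate 1 (0.63). The rbl2 call ended without junbb OE replicate 1 (0.60) or myl7:nucDsRed+ replicate 1 (0.55), and when centred on start-site peaks (limma adjusted p = 0.0666).

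The stag1b peak (ENSDARG00000062137; chromosome 24, 26994642 to 26995208), of another cohesin subunit, had 102 and 88 in junbb OE, against 164 and 141 in myl7:nucDsRed+ (log2 change -0.66 ± 0.24, limma adjusted p = 0.0434). It had 143 and 147 in junba OE, where it was not called (adjusted p = 0.869). The call ended without either junbb OE library (log2 change -0.76 and -0.55) or either myl7:nucDsRed+ library (-0.55 and -0.76). It also ended with an added 1 (limma adjusted p = 0.0526), equal totals (0.332) or quantile normalization (0.0723). The 9 members called in junbb OE became 5 without myl7:nucDsRed+ replicate 1, 3 without myl7:nucDsRed+ replicate 2, 3 without either junbb OE library and 14 without junba OE replicate 1. Their split of 5 higher and 4 lower became 12 higher and 1 lower with equal totals, 5 higher and 2 lower with quantile normalization, and 3 higher and 5 lower when centred on start-site peaks. Over all tested peaks, 1855 higher and 2404 lower became 2661 and 1584, 2017 and 2137, and 1402 and 2876 in these fits. The number called over all tested peaks also fell without either myl7:nucDsRed+ or either junbb OE library, and rose without junba OE replicate 1.

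Isolation and cell number differ between the overexpression and myl7:nucDsRed+ libraries and cannot be told apart from overexpression. Beside these results, 9 of 13 tested endothelial and endocardial marker peaks were more accessible in junba OE and 12 of 13 in junbb OE, and none less. Their summed value over 14 peaks was 475 and 536 in junba OE and 733 and 797 in junbb OE, against 141 and 129 in myl7:nucDsRed+. Of 23 cardiomyocyte marker peaks, 16 were less accessible in junba OE and 15 in junbb OE, and 1 and 2 more accessible, and the summed value was 942 and 721 in junba OE and 710 and 784 in junbb OE, against 1955 and 2315 in myl7:nucDsRed+. One cardiomyocyte marker peak was at 0 in 1 junba OE library, and the part of other cells in the member results was not tested.

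Between the overexpressed factors, which were isolated alike, no member was called (limma; 0 of 71 for junba OE against junbb OE), and 0.088% of all tested peaks were. Before adjustment 5 of the 71 members had p under 0.05 (2 higher and 3 lower in junba OE), beside 1494 of all 14776 tested peaks. The median log2 difference over the members was 0.00, and single differences ran from -1.02 at the distal ywhaqa peak to 0.82 at rbl1, a p107-type pocket protein gene. At ccnb2, a mitotic cyclin, the value was 8 and 14 in junba OE, against 27 and 25 in junbb OE (log2 difference -0.98, adjusted p = 0.413). The 95% interval lay within 1 log2 unit of 0 at 39 of the 71 members, so larger differences were not excluded at the rest. Without junba OE replicate 1 the median log2 difference over the members was 0.08.

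The direct contrasts of gata4:EGFP+ with each overexpression, added after the data were seen, test whether the changes against myl7:nucDsRed+ differ. Against junba OE, 3 members were higher and 15 lower in gata4:EGFP+, where 21.2% of all tested peaks were higher and 11.8% lower (33.0% called) and 3.02% of tested start-site peaks were higher and 19.0% lower (22.0% called). Against junbb OE, 1 was higher and 10 lower, where 21.2% of all tested peaks were higher and 13.8% lower (35.0% called) and 3.13% of tested start-site peaks were higher and 18.2% lower (21.3% called). Of the 3 higher against junba OE, the ywhaqa peak at 1650 bp and the anapc4 peak passed the filter only through myl7:nucDsRed+. The median log2 difference over members was -0.47 against junba OE and -0.44 against junbb OE, where it was -0.36 and -0.38 over tested start-site peaks. When libraries were centred on start-site peaks, 5 members were higher and 2 lower against junba OE, and 4 higher and 4 lower against junbb OE. Over all tested peaks the centred splits were 4496 higher and 699 lower, and 4570 higher and 852 lower. With equal totals the member split against junba OE was 3 higher and 6 lower, and with quantile normalization 1 higher and 24 lower. Over all tested peaks these were 3262 higher and 1105 lower, and 2619 higher and 2690 lower. Of the tested marker peaks, 7 of 13 endothelial and endocardial ones were lower in gata4:EGFP+ than in junba OE and 11 of 13 lower than in junbb OE, with 1 higher in each contrast. Of 23 cardiomyocyte marker peaks 7 were higher and 1 lower against junba OE, and 13 higher and 2 lower against junbb OE, and of 5 epicardial and fibroblast peaks 3 and 2 were higher. Their part in the member differences was not tested.

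The cdk1 promoter (chromosome 17, 20923194 to 20923688) had 40 and 64 in gata4:EGFP+, against 104 and 126 in junba OE and 87 and 96 in junbb OE, with 74 and 77 in myl7:nucDsRed+. The gata4:EGFP+ libraries were the lowest of the 8, and the log2 difference was -1.10 ± 0.27 from junba OE (limma adjusted p = 0.00365) and -0.79 ± 0.27 from junbb OE (adjusted p = 0.0255). The promoter of orc5, an origin recognition subunit, had 12 and 9 in gata4:EGFP+, against 50 and 26 in junba OE, 52 and 27 in junbb OE and 29 and 23 in myl7:nucDsRed+. Its differences were -1.42 ± 0.40 from junba OE (adjusted p = 0.00921) and -1.47 ± 0.40 from junbb OE (adjusted p = 0.00708). All 18 calls against junba OE and all 11 against junbb OE ended when 1 or the other gata4:EGFP+ library was left out: 17 and 15 of the 18 without replicates 1 and 2, and 7 and 9 of the 11. In both contrasts the number called without either gata4:EGFP+ library fell over the members and over all tested peaks alike. Both numbers also fell without junba OE replicate 2 against junba OE, and without either junbb OE library against junbb OE. Against junbb OE, both rose without either junba OE library.

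Blocking AP-1 with A-Fos gave no called member: 0 of 42 passed the limma test at an adjusted p under 0.05, and 0.0% of the 6012 tested peaks did. Before adjustment 2 members had p under 0.05, anapc11 and orc2, and 200 of all tested peaks did. The median log2 change was 0.02 over the members and 0.00 over tested start-site peaks, with members from -0.79 at lig1 to 0.91 at anapc11. The 95% interval lay within 1 log2 unit of 0 at 28 of the 42 members, and the widest half-interval was 0.95. All A-Fos (+) libraries stood above all A-Fos (-) libraries at 4 members and below them at 1, compared with 3.34% and 3.58% of all tested peaks. Tested marker peaks were few here: 2 of cardiomyocytes, 2 of endothelial and endocardial cells and 3 of leukocytes, with none called. The part of other cells in these results was not tested.

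The anapc11 promoter (chromosome 6, 18250825 to 18251083), of the catalytic RING subunit of the anaphase-promoting complex, had 36, 38 and 35 in A-Fos (+), against 10, 22 and 21 in A-Fos (-). The groups did not overlap, and the log2 change was 0.91 with a 95% interval of 0.21 to 1.62 (limma adjusted p = 1.0). The promoter of orc2, an origin recognition subunit, had 17, 33 and 29 in A-Fos (+), against 5, 20 and 13 in A-Fos (-), which overlapped (0.89, interval 0.04 to 1.73, limma adjusted p = 1.0). The other peaks without overlap were those of wee1, fen1, cdc14b and mdm2. The promoter of wee1, the kinase that restrains cdk1, had 53, 35 and 49 in A-Fos (+), against 22, 33 and 33 in A-Fos (-). The fen1 promoter had 33, 52 and 29 in A-Fos (+), against 24, 17 and 27 in A-Fos (-), and cdc14b had 129, 129 and 121, against 110, 111 and 109. The intragenic mdm2 peak was the 1 below, with 9, 6 and 9 in A-Fos (+), against 22, 16 and 11 in A-Fos (-), a log2 change of -0.69 whose interval ran from -1.61 to 0.23. That peak passed the filter only through A-Fos (-), with a mean of 12.2 over the 6 libraries and 8.0 in A-Fos (+). None of these differences passed the test, and the reads behind them were fewest in A-Fos (+) replicate 3, with an estimated 129391 nuclear reads in peaks.

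**Figure D4:**
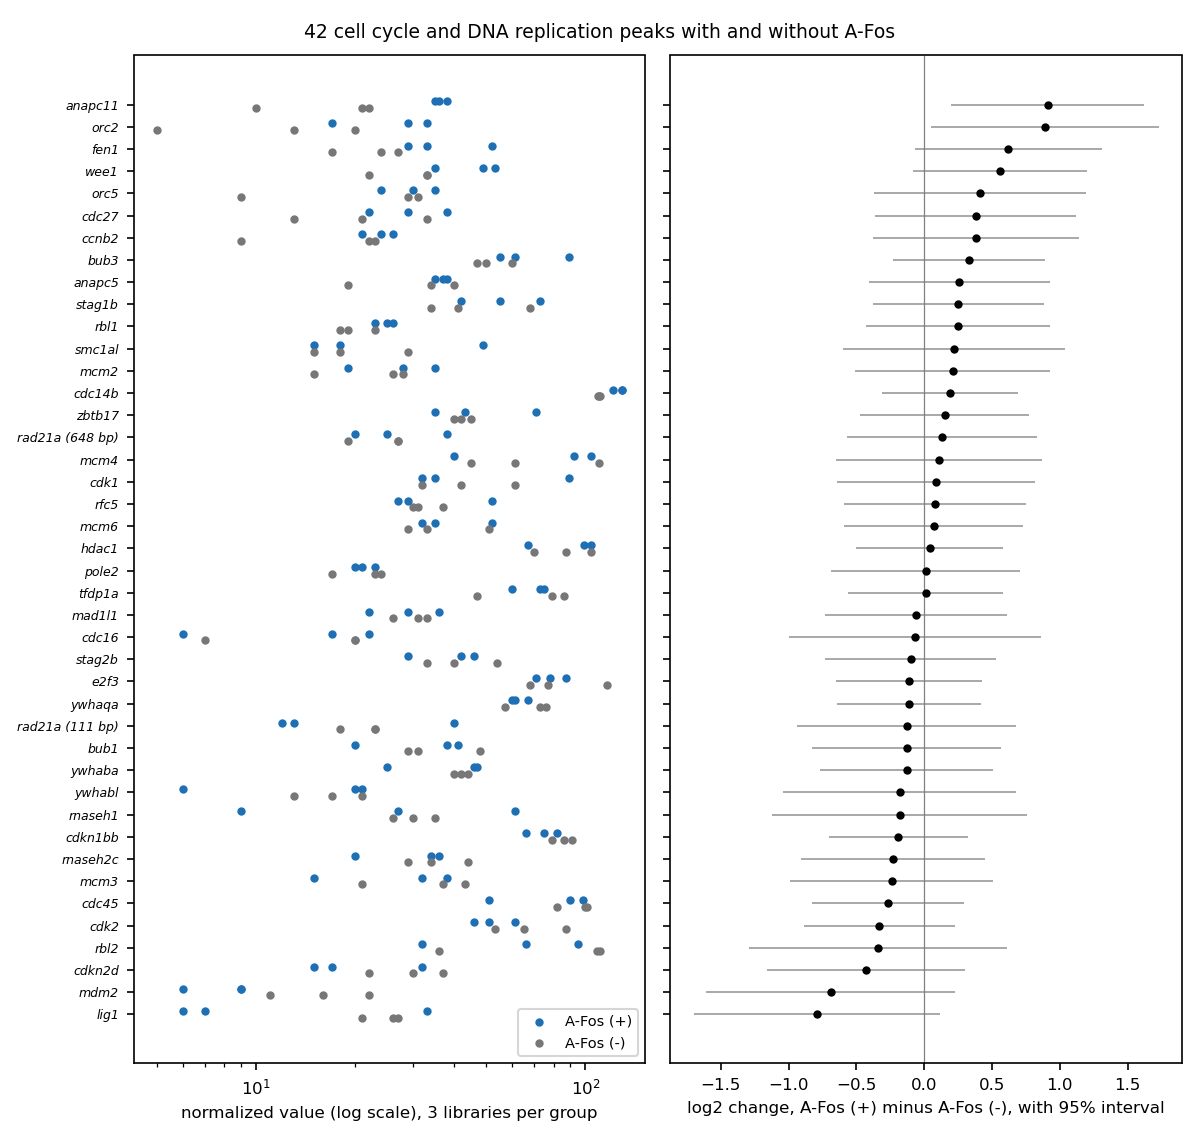
Values of the 42 member peaks in the A-Fos table (left, log axis, A-Fos (+) blue and drawn above A-Fos (-) grey, 3 libraries each) and the log2 change with its 95% interval (right). The intervals of 40 members include 0; those of anapc11 (0.21 to 1.62) and orc2 (0.04 to 1.73) do not, before adjustment.

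Of the members called against myl7:nucDsRed+, 8 had an overlapping peak in the A-Fos table, where none was called: the log2 changes were -0.69 at mdm2, -0.43 at cdkn2d, -0.34 at rbl2, -0.10 at stag2b, 0.15 at zbtb17, 0.25 at stag1b, 0.33 at bub3 and 0.62 at fen1. A further 5 were called only in a direct contrast of gata4:EGFP+ with an overexpression, and their log2 changes with A-Fos were -0.18 at the ywhabl peak at 67 bp, 0.09 at cdk1, 0.11 at mcm4, 0.41 at orc5 and 0.91 at anapc11. The members with the highest mean values in that table were cdc14b, hdac1 and cdc45, at means of 118, 88.5 and 87.0 over the 6 libraries.

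A list of 55 further cell cycle genes outside these pathways, chosen with earlier results known, had 28 tested peaks at 26 genes. In gata4:EGFP+, 2 of the 28 were higher and 2 lower than in myl7:nucDsRed+: both peaks of anln, the cytokinesis scaffold anillin, rose (log2 change 2.76 ± 0.36, adjusted p = 7.88e-05, at 5161 bp, and 1.58 ± 0.43, adjusted p = 0.0139, at 1078 bp), and ccng2, an atypical cyclin of arrested cells, and plk3, a stress-responsive kinase, fell (-1.06 ± 0.24 and -0.98 ± 0.25). In junba OE 2 were higher and 1 lower, and in junbb OE 5 were higher and none lower. The anln peak at 5161 bp was among the higher ones in both overexpressions (limma adjusted p = 0.0188 in junba OE and 0.0101 in junbb OE). The anln peak at 1078 bp was the 1 lower in junba OE (-1.19 ± 0.43, adjusted p = 0.0441). Of all tested peaks, 12.3% were higher and 6.61% lower in gata4:EGFP+. These shares were 10.3% and 15.9% in junba OE, and 12.6% and 16.3% in junbb OE. The start-site peak of knstrn, a spindle protein gene, rose in both overexpressions (2.65 ± 0.36 in junba OE and 2.05 ± 0.36 in junbb OE). With A-Fos none of 20 was called.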

How the data were processed

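Accessibility was measured by ATAC-seq in 14 libraries of 6 groups, in 2 tables that were normalized separately, so levels were compared only within a table. The values are scores per peak that the authors deposited: reads corrected for background and normalized with DESeq size factors, per the files' names, and rounded to whole numbers. Per the file headers, the deposited fraction of each peak that overlaps the gene body, the gene, the distance to its start site and the pathway terms were used as the authors gave them. DESeq, DESeq2 1.18.1, MACS2, deepTools 2.5.7, STAR 2.6.1d, Trimmomatic 0.36 and Picard 2.18.16 are named with the builds danRer11 and GRCz11 in the submitters' processing notes, without their roles; parameters, and whether peaks were called on pooled libraries, are not given in the sources used here. Coordinates are on that build as deposited, and the files do not say whether starts count from 0 or 1. Background correction and rounding limit what low values can show.

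From these, log2(value + 5) was fitted with limma 3.58.1 in R 4.3.3 (empirical Bayes with trend and robust), over all peaks with a mean of at least 10, the mitochondrial peak left out, with Benjamini-Hochberg adjustment over the table. The values are not counts, so no count model was used. All groups of a table shared 1 estimate of spread. The fit was tested on simulated data. Python 3.11.15 computed the summaries. The alternatives were other pseudocounts (1 and 10), filters (none and a mean of 30), equal totals, quantile normalization, centring on peaks within 500 bp of a start site, library weights, a replicate block, fits of 2 groups and each library left out. Named peaks are all members called in a comparison and the member of highest mean value in each role list. Further ones, such as those that missed the threshold, were chosen after their values were seen, and library values are given for more called peaks than the rule asked for. The members, role lists and marker lists were chosen with earlier results of these data known, and 2 genes (ywhabl and ywhah) were placed with the 14-3-3 genes after the files were read. Sequences and motifs were not analysed here.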

Additional observations from a re-analysis of the deposited data

Results flagged for a closer look

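The changes from myl7:nucDsRed+ differed between gata4:EGFP+ and an overexpression at 29 peak comparisons, by a limma test of the difference itself (gata4:EGFP+ minus the overexpression, adjusted p under 0.05) in a contrast chosen after seeing the data. The share of members called was 25.4% against junba OE and 15.5% against junbb OE. It was 33.0% and 35.0% over all tested peaks, and 22.0% and 21.3% over tested start-site peaks. Among inhibitors and kinases, cdkn1ba, a p27-type inhibitor gene (116 bp from the start site), differed by -0.94 log2 units from junba OE and -1.49 from junbb OE. The mitotic kinase gene cdk1 differed by -1.10 from junba OE and -0.79 from junbb OE.

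Among pocket protein and E2F genes the differences from junba OE were -1.09 at e2f4, a repressive E2F factor, -1.08 at tfdp2, -0.91 at zbtb17 and -0.76 at rbl2. From junbb OE they were -0.74 at zbtb17 and -0.91 at rbl2. At replication genes, orc5 differed by -1.42 from junba OE and -1.47 from junbb OE, and fen1 by -0.89 from junba OE and -1.19 from junbb OE. The differences at rfc3 (-1.27) and at mcm4 (-0.82), a helicase subunit gene, were called from junba OE alone.

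The 14-3-3 genes went both ways. The ywhaz peak differed by -0.96 from junba OE and -0.78 from junbb OE, and the ywhabl peak at 1170 bp by -0.96 from junba OE and -1.06 from junbb OE. The ywhabl peak at 67 bp differed by -0.90 from junba OE. In the other direction, ywhaqb differed by 1.43 from junba OE and 1.09 from junbb OE, and the ywhaqa peak at 1650 bp by 1.47 from junba OE. That ywhaqa peak had 10 and 13 in gata4:EGFP+, against 2 and 0 in junba OE, and passed the filter only through myl7:nucDsRed+.

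At mitotic genes, the stag2b peak at 588 bp differed by -1.36 from junba OE and -1.52 from junbb OE, bub3 by -0.92 from junbb OE, anapc11 by -1.15 from junba OE and anapc4 by 1.19 from junba OE. The anapc4 peak also passed the filter only through myl7:nucDsRed+. It had 15 and 17 in gata4:EGFP+, against 7 and 2 in junba OE (limma adjusted p = 0.0475). Injury, reporter, isolation and cell number all differ between these groups and cannot be told apart. Endothelial marker peaks were also lower in gata4:EGFP+ (7 of 13 against junba OE and 11 of 13 against junbb OE) and cardiomyocyte marker peaks higher (7 and 13 of 23), and their part was not tested. Against junba OE 3 members were higher and 15 lower (25.4% called), beside 33.0% of all tested peaks called, and 3.02% of tested start-site peaks higher and 19.0% lower. Against junbb OE 1 was higher and 10 lower (15.5% called), beside 35.0% of all tested peaks called, and 3.13% of start-site peaks higher and 18.2% lower. When libraries were centred on start-site peaks the splits were 5 higher and 2 lower against junba OE and 4 higher and 4 lower against junbb OE. The lower calls kept there were cdk1 and orc5 against junba OE. Against junbb OE they were cdkn1ba, orc5, fen1 and the stag2b peak at 588 bp. All other lower calls named above ended. Over all tested peaks the centred splits were 4496 higher and 699 lower, and 4570 higher and 852 lower. Each of the 29 lost its call without 1 or the other gata4:EGFP+ library.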

How the results depend on the processing

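The number of members called depended on the processing. For gata4:EGFP+ against myl7:nucDsRed+ it was 3, and 8 with quantile normalization, 5 when centred on start-site peaks, 10 with library weights, 10 in a fit of 2 groups and 0 to 9 when 1 library was left out. For junba OE it was 9, and 5 with a mean of at least 30, and 3 to 19 with 1 library left out. For junbb OE it was 9, and 3 to 14 with 1 library left out. For junba OE against junbb OE it was 0, and 0 to 1. For gata4:EGFP+ against junba OE it was 18, and 10 with a mean of at least 30, 9 with equal totals, 7 when centred, and 1 to 21 with 1 library left out. For gata4:EGFP+ against junbb OE it was 11, and 7 with a mean of at least 30, 22 with quantile normalization, 24 with library weights, 21 in a fit of 2 groups, and 2 to 19 with 1 library left out. The calls over all tested peaks moved with the setting too, also when 1 library was left out. For gata4:EGFP+ against myl7:nucDsRed+ they were 1818 higher and 977 lower, and 2282 and 1576 with library weights. For gata4:EGFP+ against junbb OE they were 3134 higher and 2038 lower, and 3881 and 2860 with library weights. The cause was not tested, and a mean of at least 30 leaves 47 members. With A-Fos it was 0 in all 15 alternatives. For named peaks, 1342 alternative values stayed on the same side of the threshold, and 209 lost and 8 gained a call. These values include peaks that were not called in the main fit. Only the tfdp2 call and the ywhaqa call at 1650 bp, both in junba OE, were kept in every fit that tested them. The ywhaqa peak passed the filter only through myl7:nucDsRed+, where it is high. It was not tested without myl7:nucDsRed+ replicate 2 or with a mean of at least 30, so its call was checked less than that of tfdp2. In every alternative that left out no library, 2 of 3 calls were kept in gata4:EGFP+, 6 of 9 in junba OE and 4 of 9 in junbb OE. In the direct contrasts 3 of 18 and 4 of 11 were kept there. None changed direction where the peak was called in the main or the alternative fit. Changes of sign at peaks called in neither were not counted. Equal totals moved the median log2 change of all tested peaks to 0.15 in gata4:EGFP+, 0.24 in junbb OE and -0.24 in A-Fos (+), and centring to 0.14 in gata4:EGFP+, -0.21 in junba OE and -0.17 in junbb OE. Where 1 library was left out of a group of 2, the lone sample was assumed to vary like the other groups.

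Replicate numbers showed no pairing in the table of 4 groups, where deviations of same-numbered libraries correlated at -0.0323 to 0.0204. In the A-Fos table they correlated at 0.28, 0.256 and 0.0823. There each library correlated best with its own number, a hint of pairing from the data and not the design, which the main fit left out. With the replicate block, 4 members were called in gata4:EGFP+, 9 in junba OE and 10 in junbb OE against myl7:nucDsRed+, 0 between junba OE and junbb OE, 18 and 11 in gata4:EGFP+ against junba OE and junbb OE, and 0 with A-Fos.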
